A study of Mus musculus with 4 samples.

Results

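The genes described here encode 35 enzymes that build, recycle and balance purine and pyrimidine nucleotides, from the phosphoribosyl pyrophosphate synthetases to ribonucleotide reductase and the salvage kinases. They were chosen by name, as the rows of the expression table whose gene symbol matched one of 35 listed symbols, and all 35 were found among 22186 genes. The cells were MC38, a mouse colon carcinoma line, stably carrying TetOn-CXCL14, a plasmid from which doxycycline, a tetracycline antibiotic, switches on the secreted chemokine CXCL14. RNA was sequenced from 2 cultures given 1 µg/mL doxycycline and from 2 control cultures given an equal volume of the solvent PBS, all harvested at 72 h and described as biological replicates. Every library carried the construct. No library received doxycycline without it, so CXCL14 and doxycycline itself cannot be told apart.

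Nucleotides are the building blocks of RNA and DNA and carry energy and signals in the cell. Purines are assembled stepwise on a ribose phosphate to inosine monophosphate, from which the adenine and guanine branches part, whereas the pyrimidine ring is made first and joined to ribose afterwards. Salvage enzymes return free bases and nucleosides to the pool, and ribonucleotide reductase and the thymidylate enzymes turn part of it into DNA precursors. Proliferating cells, tumour cells among them, rely on both routes. Many of these genes are known targets of the transcription factor MYC, and several enzymes of DNA precursor synthesis are known to peak in S phase.

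Values are TPM, the share of a gene in all transcripts, corrected for transcript length and scaled to a fixed total, so levels can be set side by side between genes. All values are levels of RNA, and amounts of protein, enzyme activity and nucleotide levels are not part of these data. The tables hold no read counts and the depth of the libraries is therefore unknown. Cxcl14 itself stood at 385 and 391 TPM with doxycycline, against 27.3 and 29.2 TPM in the controls. Between libraries, log2 levels differed with an SD of 0.16 within the doxycycline pair and 0.18 within the control pair, and of 0.69 to 0.74 from one group to the other. Colon epithelial markers were scarcely present, with 11 of 11 below 1 TPM on average, 4 of them at 0 in every library (Cdh1, Krt19, Cdx1 and Cdx2), and summed levels of 0.830 and 1.13 TPM with doxycycline and 1.28 and 1.22 TPM in the controls. Macrophage markers summed to 3.82 and 5.33 TPM with doxycycline and 5.50 and 4.84 TPM in the controls, and 3 of them (C1qa, C1qc, Laptm5) were listed at 0 in every library. Endothelial markers summed to 10.1 and 11.4 TPM with doxycycline and 11.4 and 8.50 TPM in the controls, with Kdr listed at 0 throughout. Fibroblast markers differed, with 910.0 and 823 TPM summed over 10 genes with doxycycline and 4054 and 4207 TPM in the controls, mostly from Dcn, Col3a1 and Pdgfra. Of the 10, 4 averaged below 1 TPM (Col1a2, Lum, Fap and Thy1, with Thy1 listed at 0 throughout), and Col1a1 averaged 2.29 TPM in the controls. Of the 6 tested, 0 rose and 5 fell. The part of the fibroblast markers in the results below was not tested. In bulk RNA, fewer cells of a type and less RNA per cell cannot be told apart.

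Transcripts of most nucleotide synthesis enzymes were more abundant after doxycycline, and the 6 that fell were those of Prps2, Ctps2, Cmpk1, Rrm2, Tyms and Tk1. All 35 passed the filter on low values, and of these 25 rose, 6 fell and 4 did not pass the test, a limma test on log2(TPM + 1) over the 11359 genes that averaged 1 TPM or more, called at a Benjamini-Hochberg adjusted p under 0.05. Across all genes tested, 64.4% were called, 29.0% as higher and 35.4% as lower, so a call alone is common here, and 71.4% of the enzyme genes were called higher and 17.1% lower. Counts of calls in the smaller groups below stand beside the same shares of all genes tested. Their median log2 fold change was 0.44, beside -0.04 over all genes tested, with quartiles of 0.08 and 0.76 beside -0.41 and 0.27. The 2 doxycycline libraries lay above both controls for 26 members and below both for 7, and the groups overlapped for 2, whereas among all genes tested the groups did not overlap for 82.7%, with doxycycline above in 37.7% and below in 45.0%. Together the 35 genes held 0.616% and 0.633% of the listed TPM in the doxycycline libraries, against 0.439% and 0.413% in the control libraries. Only 4 changes reached a log2 size of 1 when rounded to 2 decimals. With 2 libraries a group, an exact permutation of the labels cannot go below p = 0.33 (two-sided), and the calls depend on limma borrowing its estimate of spread from other genes. Standard errors (SE) below are those of the log2 fold change, with n = 2 libraries a group. Near-identical pseudogenes are annotated for Impdh2, Gmps, Rrm2, Rrm2b, Tyms, Nme2, Tk1 and Uck1, whose values are uncertain as far as reads were divided with them.

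**Figure D1:**
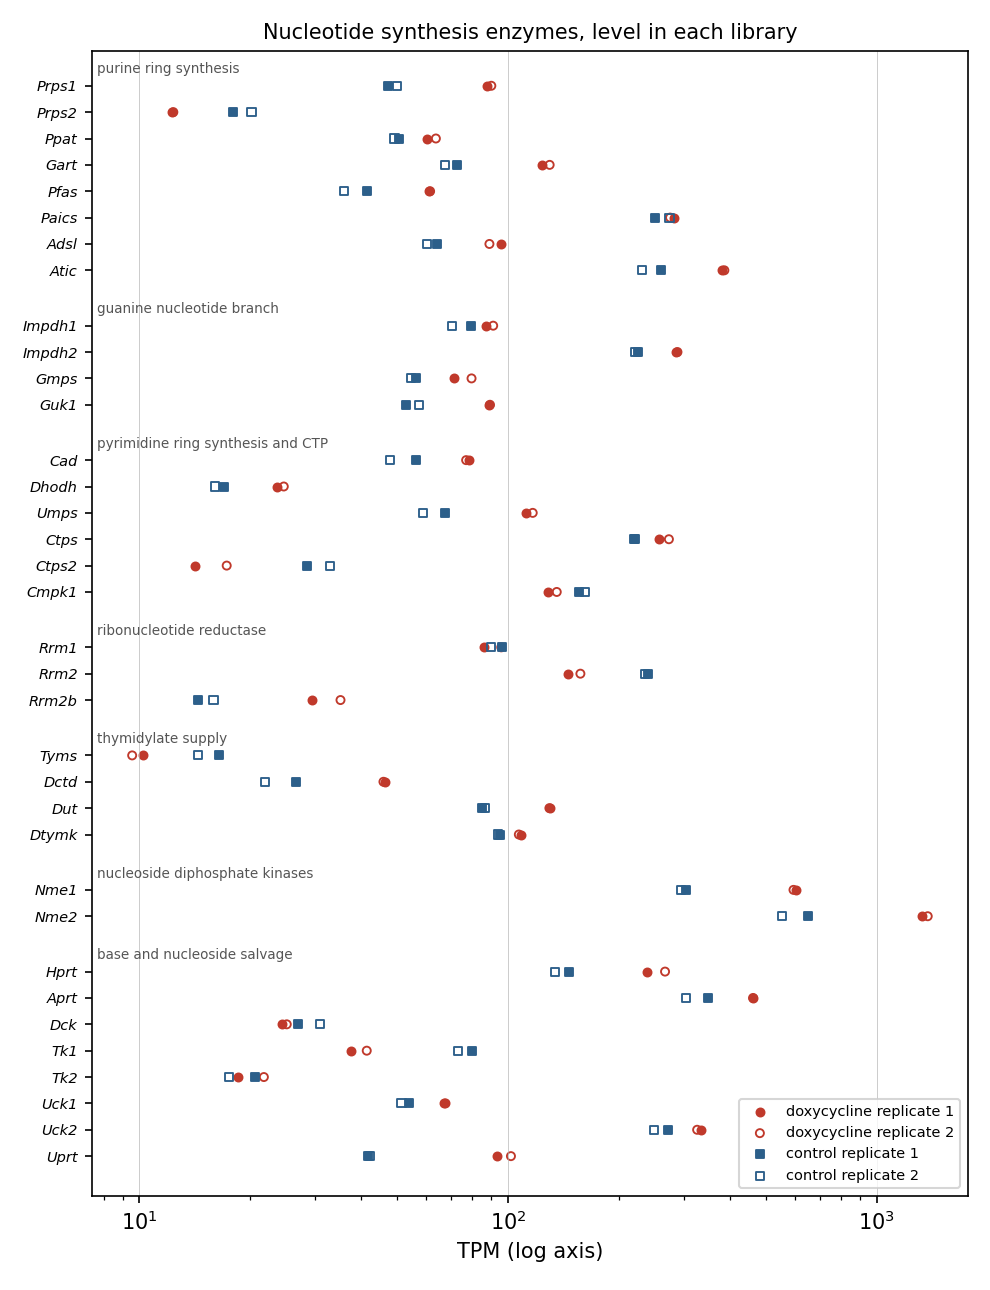
TPM of each of the 35 enzyme genes in the 4 libraries, on a log axis, grouped by role; circles are doxycycline libraries and squares control libraries, filled for replicate 1 and open for replicate 2. For 33 genes the circles and squares do not overlap, and Nme2 has the highest levels, at 1324 and 1374 TPM with doxycycline and 651 and 554 TPM in the controls.

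Levels spanned a wide range. Averaged over the 4 libraries, the lowest member was Tyms at 12.7 TPM and the highest was Nme2 at 975.8 TPM, with a median of 77.3 TPM over the 35 genes beside 34.8 TPM over all genes tested. After Nme2 came Nme1 at 449 TPM, Aprt at 394 TPM, Atic at 314 TPM and Uck2 at 294 TPM. The low end, above Tyms, held Prps2 at 15.7 TPM, Tk2 at 19.6 TPM, Dhodh at 20.3 TPM and Ctps2 at 23.2 TPM.

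Genes for the steps that assemble the purine ring rose, except those of a minor synthetase isozyme and of Paics. Of 8 genes, 6 rose and 1 fell, with a median log2 fold change of 0.60, and their summed level was 1101 and 1107 TPM in doxycycline cultures, against 804 and 787 TPM in control cultures. Prps1, which makes the phosphoribosyl pyrophosphate used in ring synthesis and base salvage, stood at 87.7 and 90.0 TPM with doxycycline and 47.1 and 49.9 TPM in the controls. That was a 1.83-fold rise, with a log2 fold change of 0.86 (SE 0.06; limma adjusted p = 3.9e-06). Its isozyme Prps2 went the other way, at 12.2 and 12.4 TPM with doxycycline and 17.9 and 20.1 TPM in the controls (log2 fold change -0.59 with SE 0.09, limma adjusted p = 0.00045). Ppat, the amidotransferase that commits phosphoribosyl pyrophosphate to purine synthesis, was at 60.4 and 63.7 TPM with doxycycline and 50.6 and 49.2 TPM in the controls, one of the smaller rises (log2 fold change 0.31 with SE 0.07, limma adjusted p = 0.0027).

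Most of the genes whose enzymes follow Ppat differed more between cultures. Gart, a trifunctional protein that catalyses 3 steps of ring assembly, was measured at 124 and 129.6 TPM with doxycycline and 72.8 and 67.2 TPM in the controls, and rose 1.81-fold (log2 fold change 0.85 with SE 0.07). An annotated antisense gene overlaps 19.7% of its exon bases in GENCODE M21, and reads of that gene may be included. Pfas, the glutamine-using synthase that acts between those steps, was at 60.9 and 61.4 TPM in doxycycline cultures, against 41.5 and 35.9 TPM in control cultures (log2 fold change 0.65). Adsl, adenylosuccinate lyase, which acts both in ring assembly and in the adenine branch, was at 95.7 and 89.0 TPM with doxycycline, against 64.3 and 60.4 TPM in the controls (log2 fold change 0.56). In both genes the groups were far apart relative to the gap between replicates. Atic, the bifunctional enzyme that closes the ring to inosine monophosphate, was the most abundant of the 8, with 379.5 and 386 TPM after doxycycline and 259.6 and 230.5 TPM in the controls (log2 fold change 0.64 with SE 0.07). The limma adjusted p-values of Gart, Pfas, Adsl and Atic were at most 9.2e-05. Paics, which joins carboxylation and aspartate addition in one protein, did not pass, at 281 and 275 TPM with doxycycline and 249.8 and 274 TPM in the controls (log2 fold change 0.09 with SE 0.06, limma adjusted p = 0.26). Its lower doxycycline library lay just above the higher control.

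Ppat and Paics are head-to-head neighbours on opposite strands, with annotated starts 276 bases apart in GRCm38.p6 and with 272 exon bases in common in GENCODE M21. No source at hand says whether reads were counted by strand, so those in the shared stretch may have been given to either gene. Promoter windows are printed for these neighbours, of which Paics but not Ppat holds a MYC-type E-box, and for 4 other members that hold it. They were chosen because they set genes that rose beside genes that did not. RefSeq windows of 250 bases before to 50 after a start were matched for 32 members, all but Dhodh, Pfas and Rrm2b. The E-box CACGTG, which reads alike on both strands, was found in windows of 6 of the 32 genes (18.8%), beside 8.09% of all 27025 genes with a window and 7.15% of all 32851 windows. All genes with a window were not limited to the genes tested here. Of those 6 members, Atic, Impdh2, Dtymk and Nme1 rose, Tyms fell and Paics did not pass, beside 71.4% higher and 17.1% lower among all members. The E2F-type sequence TTTCCCGC, or its reverse complement GCGGGAAA, was found for 2 of the 32 (6.25%), Ppat and Prps2, beside 1.24% of all genes with a window. A match is a string of letters and not evidence of binding. The sequences run 5′ to 3′ along the gene's own strand in GRCm38.p6, with E-boxes and E2F-type matches in capitals.
Atic, chr1:71556906-71557205, plus strand: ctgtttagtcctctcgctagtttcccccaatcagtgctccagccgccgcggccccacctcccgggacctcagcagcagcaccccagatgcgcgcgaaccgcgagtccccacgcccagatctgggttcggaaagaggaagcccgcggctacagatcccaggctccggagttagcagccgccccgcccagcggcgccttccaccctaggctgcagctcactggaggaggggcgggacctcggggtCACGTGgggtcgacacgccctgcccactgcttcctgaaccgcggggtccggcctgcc
Impdh2, chr9:108560186-108560485, plus strand: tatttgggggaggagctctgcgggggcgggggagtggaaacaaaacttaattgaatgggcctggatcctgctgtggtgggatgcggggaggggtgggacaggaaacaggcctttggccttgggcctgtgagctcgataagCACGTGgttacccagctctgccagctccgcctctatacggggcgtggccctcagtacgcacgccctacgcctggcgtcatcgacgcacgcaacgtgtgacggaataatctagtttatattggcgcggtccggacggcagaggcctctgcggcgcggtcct
Nme1, chr11:93968223-93968522, minus strand: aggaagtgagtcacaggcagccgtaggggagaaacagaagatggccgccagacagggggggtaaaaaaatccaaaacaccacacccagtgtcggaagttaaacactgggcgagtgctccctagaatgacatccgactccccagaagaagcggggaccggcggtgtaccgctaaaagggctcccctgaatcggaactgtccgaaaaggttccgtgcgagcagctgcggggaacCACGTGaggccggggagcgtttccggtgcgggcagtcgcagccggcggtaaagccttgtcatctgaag
Tyms, chr5:30073576-30073875, minus strand: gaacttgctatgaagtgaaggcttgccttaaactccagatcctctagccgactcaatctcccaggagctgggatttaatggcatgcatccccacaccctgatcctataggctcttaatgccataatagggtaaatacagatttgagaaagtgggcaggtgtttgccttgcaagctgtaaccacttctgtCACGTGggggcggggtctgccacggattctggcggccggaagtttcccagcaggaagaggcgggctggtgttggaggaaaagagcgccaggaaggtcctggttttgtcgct
Paics, chr5:76951052-76951351, plus strand: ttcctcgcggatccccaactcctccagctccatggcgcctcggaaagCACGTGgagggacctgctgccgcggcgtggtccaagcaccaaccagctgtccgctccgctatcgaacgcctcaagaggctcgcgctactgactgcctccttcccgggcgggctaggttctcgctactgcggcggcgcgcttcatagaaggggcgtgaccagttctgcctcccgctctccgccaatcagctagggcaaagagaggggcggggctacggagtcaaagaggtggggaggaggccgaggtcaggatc
Ppat, chr5:76951529-76951828, minus strand: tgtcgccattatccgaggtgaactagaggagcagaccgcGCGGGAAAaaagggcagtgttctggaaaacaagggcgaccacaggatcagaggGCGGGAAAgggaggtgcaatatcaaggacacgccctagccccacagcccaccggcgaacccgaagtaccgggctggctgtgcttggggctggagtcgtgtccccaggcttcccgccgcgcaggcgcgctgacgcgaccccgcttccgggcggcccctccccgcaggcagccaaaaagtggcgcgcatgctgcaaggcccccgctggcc
In the windows printed, the E-box began 7 bases before the start in Atic, 18 in Nme1, 61 in Tyms, 110 in Impdh2 and 203 in Paics. Not printed were the window of Dtymk, with its E-box 148 bases before the start, and a further window of Nme1, with its E-box 29 bases before. Ppat held its E2F-type matches 211 and 158 bases before its start. Prps2, whose window is not printed either, held its match at base 34 after the start. The CCAAT box, in either direction, was found for 13 of the 32 genes (40.6%), beside 41.1% of all genes with a window. The core of the amino acid response element bound by ATF4, searched as TGATGCAA or TTGCATCA, was found for 0 of the 32, beside 1.03% of all genes.

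Genes of the guanine branch rose throughout, by modest amounts. All 4 genes were called higher, with a median log2 fold change of 0.40, and their summed level was 532 and 548 TPM with doxycycline, against 414 and 404 TPM in the controls. Guk1, the kinase that turns GMP into GDP, changed most, with 88.8 and 89.3 TPM in doxycycline cultures and 52.9 and 57.3 TPM in control cultures (log2 fold change 0.68 with SE 0.07, limma adjusted p = 2e-05). Gmps, which aminates xanthosine monophosphate to GMP, was at 71.2 and 79.6 TPM with doxycycline and 56.2 and 54.4 TPM in the controls (log2 fold change 0.44, limma adjusted p = 0.00059). Impdh2, the growth-associated form of the dehydrogenase that commits inosine monophosphate to guanine nucleotides, was at 284 and 288 TPM in doxycycline cultures, against 226 and 221 TPM in control cultures (log2 fold change 0.35, limma adjusted p = 0.00048). The other dehydrogenase gene, Impdh1, showed the smallest rise of the 4, at 87.1 and 91.1 TPM with doxycycline and 79.5 and 70.4 TPM in the controls (log2 fold change 0.25 with SE 0.07, limma adjusted p = 0.015). That call was lost without doxycycline replicate 2, without control replicate 2 and without a filter on low values, and the adjusted p ranged from 0.0057 to 0.086 over 14 alternatives.

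Genes for each step of pyrimidine ring synthesis rose, while genes further down the path divided. Cad, the fused enzyme of the first steps, stood at 78.3 and 76.9 TPM with doxycycline and 56.2 and 47.9 TPM in the controls, 1.49-fold higher (log2 fold change 0.57 with SE 0.08, limma adjusted p = 0.00023). Dhodh, the dehydrogenase of the mitochondrial inner membrane that hands its electrons to the respiratory chain, averaged 24.1 ± 0.731 TPM with doxycycline and 16.5 ± 0.707 TPM in the controls (SD, n = 2 each; log2 fold change 0.52, limma adjusted p = 0.00047). Umps, which completes UMP, showed the widest gap of the 3, at 111 and 117 TPM with doxycycline, against 67.4 and 58.9 TPM in the controls (log2 fold change 0.85 with SE 0.08, limma adjusted p = 1.2e-05). For each of them both doxycycline libraries lay above both controls, as they did for 37.7% of all genes tested. An antisense gene overlaps 6.11% of the exon bases of Umps.

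Downstream of UMP the picture was mixed. Ctps, the main synthetase that aminates UTP to CTP, rose to 257 and 273 TPM with doxycycline, against 221 and 219.7 TPM in the controls (log2 fold change 0.26, limma adjusted p = 0.0038). Its isozyme Ctps2 fell, at 14.2 and 17.2 TPM with doxycycline and 28.4 and 32.8 TPM in the controls (log2 fold change -0.92 with SE 0.11, limma adjusted p = 7.6e-05). Cmpk1, the kinase of UMP and CMP, also fell, with 128 and 135 TPM in doxycycline cultures, against 155 and 162 TPM in control cultures (log2 fold change -0.27, limma adjusted p = 0.0042). Of the 6 pyrimidine genes 4 rose and 2 fell, with a median log2 fold change of 0.39.

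**Figure D2:**
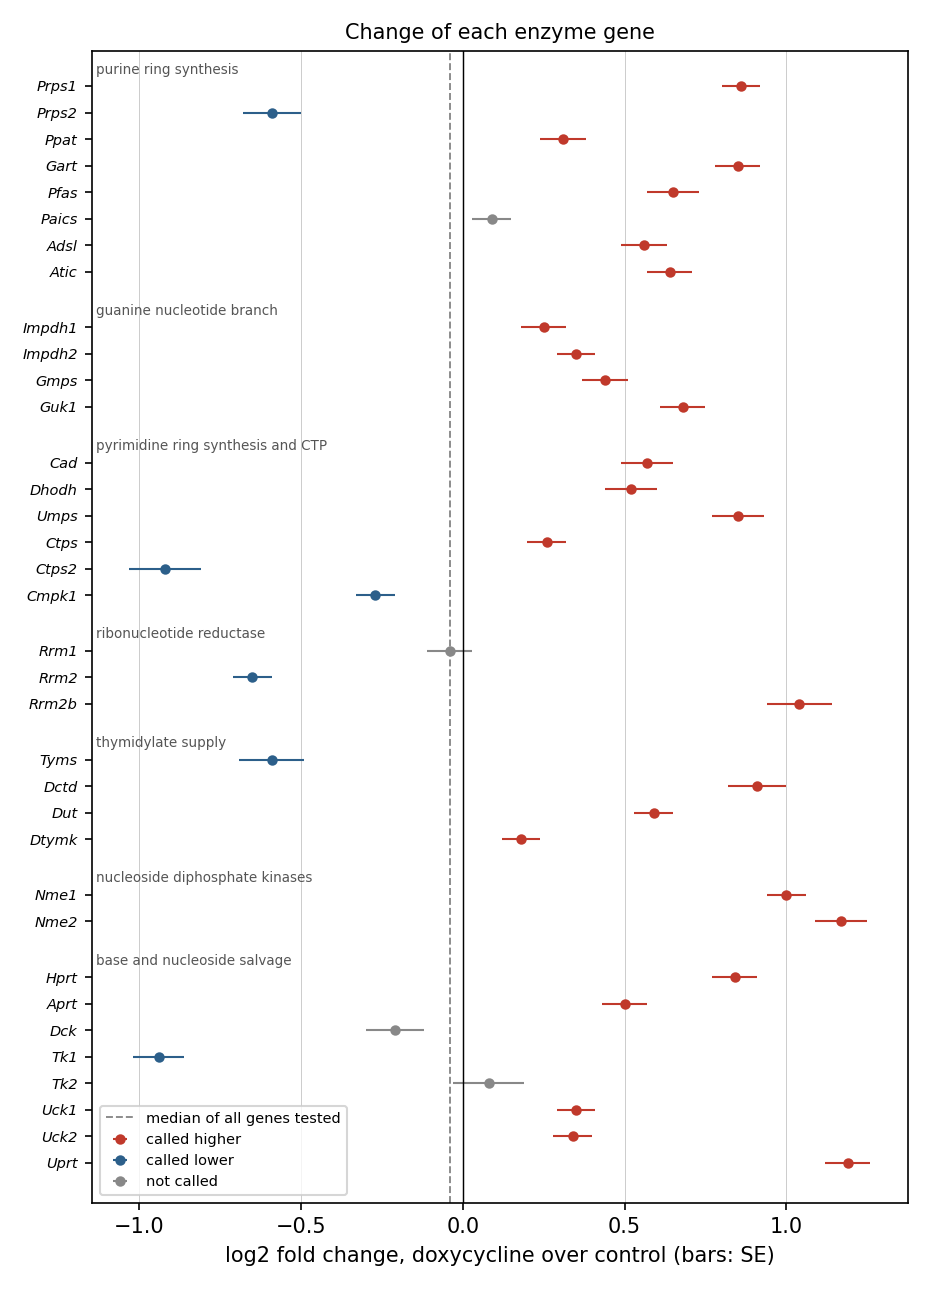
Log2 fold change of each enzyme gene, doxycycline over control, on the log2(TPM + 1) scale, with bars for 1 SE from limma; red points were called higher, blue lower, and grey did not pass. The points run from -0.94 for Tk1 to 1.19 for Uprt, and most lie right of the dashed line at -0.04, the median of all genes tested.

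Among genes of ribonucleotide reductase, which makes deoxyribonucleotides, those for the small subunit shifted. Rrm1, the large catalytic subunit, was at 85.9 and 95.8 TPM in doxycycline cultures and 96.4 and 89.8 TPM in control cultures, with overlapping groups (log2 fold change -0.04 with SE 0.07, limma adjusted p = 0.68). Rrm2, the small subunit of S phase, fell, at 146 and 157 TPM with doxycycline, against 239.9 and 235 TPM in the controls (log2 fold change -0.65 with SE 0.06, limma adjusted p = 1.8e-05). Rrm2b, the small subunit known to be induced by p53 and to serve DNA repair and mitochondrial DNA, rose 2.13-fold, at 29.4 and 35.1 TPM with doxycycline and 14.4 and 15.9 TPM in the controls (log2 fold change 1.04 with SE 0.10, limma adjusted p = 2.2e-05). Despite these opposite changes Rrm2 stayed the more abundant small subunit transcript in all 4 libraries. In GENCODE M21, 8.04% of the exon bases of Rrm2b overlap an antisense gene, so its values may include reads of that gene.

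Genes of thymidylate supply were divided too. Tyms, the synthase that methylates dUMP to dTMP, fell to 10.3 and 9.56 TPM with doxycycline, against 16.5 and 14.4 TPM in the controls (log2 fold change -0.59 with SE 0.10, limma adjusted p = 0.00078). Genes for its suppliers of dUMP rose. Dctd, the deaminase of dCMP, was at 46.5 and 45.9 TPM in doxycycline cultures, against 26.7 and 21.9 TPM in control cultures (log2 fold change 0.91 with SE 0.09, limma adjusted p = 3.3e-05). Dut, which hydrolyses dUTP to dUMP and keeps uracil out of DNA, was at 130.0 and 129 TPM with doxycycline, against 84.9 and 86.7 TPM in the controls (log2 fold change 0.59 with SE 0.06, limma adjusted p = 2.2e-05). Both pairs of replicates lay close together for Dut. Dtymk, the kinase that phosphorylates dTMP, rose slightly, at 108 and 107 TPM with doxycycline and 95.2 and 94.0 TPM in the controls (log2 fold change 0.18, limma adjusted p = 0.021). Among the called members this call was lost most often, in 5 of 14 alternatives (adjusted p from 0.0064 to 0.12), among them without either doxycycline replicate and without control replicate 2.

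The nucleoside diphosphate kinases, which equilibrate the diphosphate and triphosphate pools, were the most abundant members and among those that rose most. Nme1 stood at 604 and 594 TPM with doxycycline and 304 and 294 TPM in the controls, both doxycycline values far above both controls (log2 fold change 1.00 with SE 0.06, limma adjusted p = 8.7e-07). Nme2 stood at 1324 and 1374 TPM in doxycycline cultures, against 651 and 554 TPM in control cultures, 2.24-fold higher (log2 fold change 1.17 with SE 0.08, limma adjusted p = 3.2e-06). They are adjacent, and an annotated readthrough gene shares 12.5% of the exon bases of Nme1 and 48.9% of those of Nme2, while Nme2 also has 3 near-identical pseudogenes in GENCODE M21, so the split of reads between them is uncertain. Their summed level, which the readthrough gene, the pseudogenes and the unequal lengths of Nme1 and Nme2 can also affect, was 1928 and 1968 TPM with doxycycline, against 955 and 848 TPM in the controls.

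Salvage genes mostly rose, and the S phase thymidine kinase fell. Of 8 genes, 5 rose, 1 fell and 2 did not pass, with a median log2 fold change of 0.35. Uprt, named for the uracil phosphoribosyltransferase of microbes, showed the largest change of all members, at 93.2 and 102 TPM with doxycycline and 41.8 and 42.3 TPM in the controls, 2.32-fold higher (log2 fold change 1.19 with SE 0.07, limma adjusted p = 7.4e-07). Hprt, which returns hypoxanthine and guanine to nucleotides, was at 238 and 266 TPM with doxycycline, against 146 and 134 TPM in the controls (log2 fold change 0.84 with SE 0.07, limma adjusted p = 1e-05). Aprt, its counterpart for adenine, was at 461 and 462 TPM with doxycycline and 349 and 303 TPM in the controls (log2 fold change 0.50, limma adjusted p = 0.00031). Hprt and Aprt were thus both called higher with no overlap between groups, and groups did not overlap for 82.7% of all genes tested.

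Among the nucleoside kinases, the uridine-cytidine kinases Uck1 and Uck2 rose by similar amounts. Uck2 was at 333 and 326 TPM with doxycycline and 271 and 248 TPM in the controls (log2 fold change 0.34, limma adjusted p = 0.0013). Uck1 was at 67.1 and 67.6 TPM in doxycycline cultures, against 53.9 and 51.4 TPM in control cultures (log2 fold change 0.35, limma adjusted p = 0.0011). Tk1, the cytosolic thymidine kinase that is made in S phase, showed the largest fall of all members, at 37.4 and 41.4 TPM with doxycycline, against 79.9 and 73.0 TPM in the controls (log2 fold change -0.94 with SE 0.08, limma adjusted p = 6.9e-06). Tk2, its mitochondrial counterpart, did not pass and its groups overlapped, at 18.5 and 21.8 TPM with doxycycline and 20.5 and 17.5 TPM in the controls (log2 fold change 0.08, limma adjusted p = 0.56). Dck, the deoxycytidine kinase that also activates several nucleoside drugs, lay lower in both doxycycline libraries, at 24.4 and 25.1 TPM in doxycycline cultures, against 26.9 and 30.8 TPM in control cultures, without passing (log2 fold change -0.21 with SE 0.09, limma adjusted p = 0.058). It passed in 2 of 14 alternatives, with adjusted p from 0.024 to 0.37.

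For 7 steps the list holds a pair of related genes, and the share of the pair's TPM held by one gene shows how the balance moved. Prps1 held 87.8% and 87.9% of the Prps1 and Prps2 total in doxycycline libraries, against 72.4% and 71.2% in control libraries, 16.02 percentage points more. Ctps held 94.8% and 94.1% of the Ctps and Ctps2 total with doxycycline and 88.6% and 87.0% in the controls. In both pairs the gene that predominated in the controls held still more with doxycycline. Rrm2 held 83.2% and 81.7% of the small subunit total with doxycycline, against 94.3% and 93.7% in the controls, a difference of -11.5 points. Tk1 held 66.9% and 65.5% of the thymidine kinase total with doxycycline, against 79.5% and 80.7% in the controls (-13.9 points). In these pairs the form linked to S phase held less with doxycycline in both libraries. The uridine-cytidine kinases had overlapping shares, with Uck2 at 83.2% and 82.8% with doxycycline and 83.4% and 82.8% in the controls. Impdh2 held 76.6% and 76.0% with doxycycline and 73.9% and 75.9% in the controls. Nme1 held 31.3% and 30.2% with doxycycline and 31.8% and 34.7% in the controls, and both differences were smaller than the gap between the control replicates. The exact permutation test gave p = 0.33 (two-sided), the smallest possible, for the 6 pairs other than the uridine-cytidine kinases and 0.67 for that pair, so no pair can pass.

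**Figure D3:**
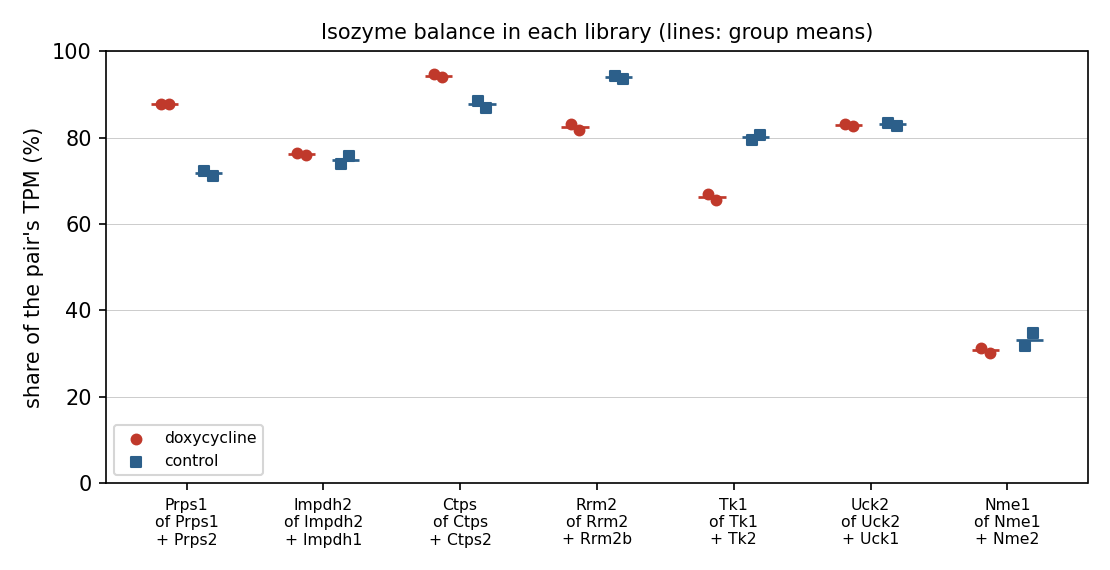
Share of the summed TPM held by the first gene of each of 7 pairs (percent, vertical axis from 0 to 100), with a point per library and a line at the group mean; circles are doxycycline and squares control. The doxycycline points lie above the control points for Prps1 and Ctps and below them for Rrm2 and Tk1, and the Uck2 points of both groups overlap.

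Members on the X chromosome showed no common direction, and other chromosomes were not compared. In the RefSeq annotation 5 members lie on the X chromosome, of which Prps1, Hprt and Uprt rose and Prps2 and Ctps2 fell.

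Genes that feed these enzymes were examined by lists of related genes, beside 29.0% called higher and 35.4% lower among all genes tested. Folate carriers and one-carbon donors, which supply the formyl groups of the purine ring and the methyl group of dTMP, mostly rose: 9 of 14 rose and 2 fell, with a median log2 fold change of 0.42. Mthfd2, the mitochondrial folate dehydrogenase, was at 331 and 335 TPM with doxycycline and 115 and 106 TPM in the controls (log2 fold change 1.58, limma adjusted p = 1e-07). Shmt2, the mitochondrial serine hydroxymethyltransferase, was at 527 and 503 TPM with doxycycline and 255 and 229 TPM in the controls. The folate carrier Slc19a1 rose as well (log2 fold change 0.93). Nucleoside and nucleotide transporters rose in 4 of 6 tested genes and fell in 0, among them Slc29a3, an equilibrative transporter of lysosomes, at 45.9 and 45.0 TPM with doxycycline and 12.3 and 12.8 TPM in the controls (log2 fold change 1.77), and Slc25a33, a mitochondrial pyrimidine nucleotide carrier, at 189 and 185 TPM with doxycycline, against 69.7 and 65.2 TPM in the controls (log2 fold change 1.46). The plasma membrane transporter Slc29a1 rose (log2 fold change 0.78), and Slc29a2 passed narrowly (0.25, limma adjusted p = 0.049).

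Genes for the supply of amino acids and ribose were less uniform. Of 11 tested genes for aspartate and glutamine supply, 5 rose and 4 fell, with a median log2 fold change of 0.09. Slc1a5, a glutamine carrier, rose (log2 fold change 1.82), as did Asns and Got1, which consume and form aspartate (1.34 and 1.33), whereas Glul, glutamine synthetase, fell (-0.94). Of 9 genes for ribose 5-phosphate supply 3 rose and 3 fell, shares near those of all genes tested. Among them Pgd, the oxidative pentose phosphate dehydrogenase, fell (log2 fold change -0.56), and Pgls, the lactonase before it, rose (0.54). Rpe, an epimerase, rose (0.49) and Pgm2, a gene of the phosphoglucomutase family placed in this list by its symbol, fell (-0.54). The limma adjusted p-values of the supply genes named in this paragraph were at most 0.00025.

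Breakdown genes leaned the other way from synthesis genes. Of 23 tested genes of nucleotide and nucleoside breakdown, 5 rose and 12 fell, beside 29.0% higher and 35.4% lower among all genes tested. Their median log2 fold change was -0.25, beside 0.44 for the synthesis enzymes and -0.04 for all genes tested. Upp1, uridine phosphorylase, fell to 10.6 and 9.80 TPM with doxycycline, against 35.5 and 30.3 TPM in the controls (log2 fold change -1.60, limma adjusted p = 1.2e-06). Ampd3, an AMP deaminase, fell to 43.4 and 36.8 TPM with doxycycline and 114 and 115 TPM in the controls (-1.49). Cda, cytidine deaminase, and Pnp, purine nucleoside phosphorylase, fell with log2 fold changes of -1.39 and -1.23. Of the 5 that rose, Entpd5, named after its values were seen, changed most (1.02). Whether the difference between the synthesis and breakdown lists exceeds that of other lists was not tested.

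S phase genes outside nucleotide synthesis moved both ways, in shares not far from those of all genes. Of 36 genes, 8 rose and 15 fell, beside 29.0% higher and 35.4% lower among all genes tested. Their median log2 fold change was -0.14, beside -0.04 for all genes tested, and their summed level was 2625 and 2677 TPM with doxycycline, against 2732 and 2562 TPM in the controls. Gins3, of the replicative helicase, was at 30.5 and 30.3 TPM with doxycycline and 59.8 and 57.6 TPM in the controls (log2 fold change -0.93), and Ccne1, which encodes cyclin E1, and Chaf1b, of a histone chaperone, fell (-0.73 and -0.61). Mcm2, another helicase subunit, rose (0.91), at 182 and 184 TPM in doxycycline cultures, against 102 and 91.3 TPM in control cultures. These values stand beside the falls of Tk1, Rrm2 and Tyms, and their part in those falls was not tested.

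**Figure D4:**
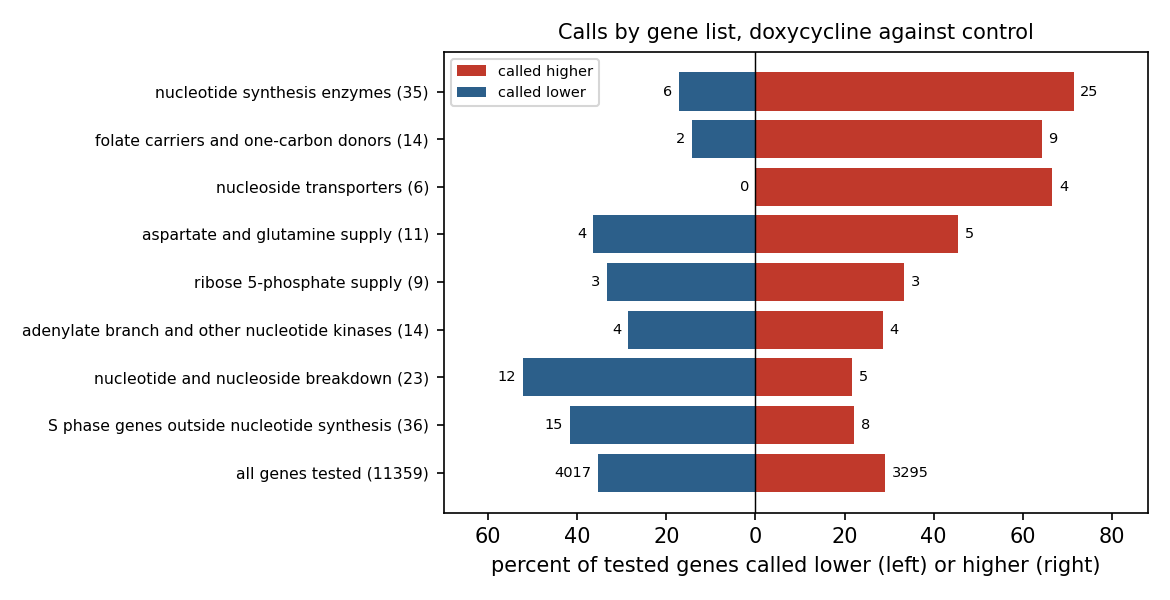
Percent of the tested genes of each list called lower (bars to the left) or higher (bars to the right) after doxycycline, with the number of genes at the end of each bar and the number tested in brackets. The nucleotide synthesis enzymes show 25 higher and 6 lower of 35, the breakdown list 5 higher and 12 lower of 23, and all genes tested 3295 higher and 4017 lower of 11359.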

How the data were processed

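The authors deposited one table of TPM and one of FPKM values per gene symbol, with 1 column for each library. The submitters' processing notes name build mm39; which aligner, quantifier and annotation were used is not given in the sources used here. The deposited FPKM, multiplied by a single factor per library (3.08 to 3.14), gave the TPM. Listed genes made up 97.2% to 97.6% of the full TPM total, and read counts were not recovered from these values. Libraries were grouped by sample title.

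Every gene averaging 1 TPM or more entered a test of log2(TPM + 1) by limma 3.58.1 in R 4.3.3 (lmFit, eBayes with trend; prior degrees of freedom 6.98, residual 2), doxycycline over control with no covariate, and Benjamini-Hochberg adjustment over all 11359 genes. Fold changes on that scale understate the change of low genes. The test was first tested on simulated data. The members and gene lists were chosen with earlier results of these data known. All members were named, and of each other list up to 4 called genes with the largest change; 1 gene that this rule names is not reported here. Alternatives changed the pseudocount (0.1, 0.5), the filter (none, 5 TPM), the unit, the scaling and the variance model, added a replicate block or left out a library; those for isozyme shares were added after the data were seen.

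To find near-identical copies, members were aligned by blastn 2.17.0 to GENCODE M21 transcripts (97% identity over 100 bases or more): 8 of the 35 members had a pseudogene match (Impdh2, Gmps, Rrm2, Rrm2b, Tyms, Nme2, Tk1 and Uck1), and their values are to that extent uncertain. Exons of 12 members overlap another annotated gene, 9 of them on the opposite strand. Promoter windows are from RefSeq, GRCm38.p6, not the build of the tables.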

Additional observations from a re-analysis of the deposited data

How the results depend on the processing

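Of 490 member values under 14 alternatives, 475 kept their direction and their side of the threshold, and 29 of the 31 called members kept both in every one of the 14; the exceptions were Impdh1 and Dtymk. The number of members called higher ranged from 23 to 25 and called lower from 6 to 7, the upper value with Dck. Over all genes the counts stayed within 1.5 times, from 2776 to 3870 higher and from 3356 to 4114 lower, the split being 3649 and 3674 under median-of-ratios scaling and 3870 and 3356 under quantile normalization, with the median of all genes at 0.00 and 0.05 in place of -0.04. The members' median log2 fold change ranged from 0.36 without doxycycline replicate 2 to 0.50 without doxycycline replicate 1. The filters, the variance models and the replicate block left each member's fold change as it was, so they could change a call but not a direction. The FPKM setting rescaled TPM by nearly the same factor in every library. Reversals touched values that did not pass. Rrm1 stood at 0.01 under median-of-ratios scaling. With each library left out in turn, the log2 fold change ranged from -0.11 to 0.04 for Rrm1 and from -0.04 to 0.19 for Tk2, and the difference in the Uck2 share from -0.417 to 0.166 points; the cause was not tested. Replicate numbers recur in both groups, but no label ties a number to a shared day or stock, and same-numbered libraries did not deviate together (correlation -0.0053 over genes). With the replicate number as a block 3387 genes were called higher and 4114 lower, and 25 members higher and 7 lower, the added gene being Dck. Without counts the depth of the libraries sets an unknown limit on the low genes.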

Other observations

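Of 16 tested regulators and partners of nucleotide synthesis, 5 rose and 5 fell, shares near the 29.0% higher and 35.4% lower among all genes tested. Myc, the transcription factor, was at 495 and 558 TPM with doxycycline and 168 and 147 TPM in the controls (log2 fold change 1.74, limma adjusted p = 2.8e-07), and Atf4, the effector of the integrated stress response, at 1406 and 1510.2 TPM with doxycycline, against 651 and 619 TPM in the controls (1.20). The MXD repressors that compete with MYC for its partner MAX fell where they were called, with Mxd3 at 5.22 and 5.07 TPM with doxycycline and 21.1 and 22.1 TPM in the controls (-1.88) and Mxd4 at 18.3 and 21.8 TPM in doxycycline cultures, against 48.8 and 49.99 TPM in control cultures (-1.27). Named after their values were seen, Trp53, which encodes p53, rose to 206 and 199.6 TPM with doxycycline, against 127 and 114 TPM in the controls (0.75), and Prpsap2, a protein that associates with the phosphoribosyl pyrophosphate synthetases, rose (0.34). From the same list, and likewise named after their values were seen, E2f1 fell (-0.30) and the related Prpsap1 did not pass (0.12, limma adjusted p = 0.24).

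The list of adenine branch genes and other nucleotide kinases showed no common direction, as 4 of 14 tested rose and 4 fell, with a median log2 fold change of -0.09. Those shares are near the 29.0% higher and 35.4% lower among all genes tested. Adss, the synthetase of the adenine branch, named after its values were seen, rose (log2 fold change 0.21, limma adjusted p = 0.0085). It stood at 224 and 227 TPM with doxycycline, against 195 and 194 TPM in the controls. Its isozyme Adssl1 averaged below 1 TPM and was not tested. Adsl, which also acts in that branch, rose as described above (0.56). Nme6, a mitochondrial member of the nucleoside diphosphate kinase family, rose to 56.5 and 59.3 TPM with doxycycline, against 19.9 and 19.4 TPM in the controls (1.51, limma adjusted p = 2.7e-07), whereas Nme3 fell to 6.63 and 5.04 TPM with doxycycline, against 12.7 and 11.8 TPM in the controls (-0.96). The adenylate kinases Ak4 and Ak1 fell (-0.74 and -0.64).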
